A study of Mus musculus with 16 samples.

Results

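The comparison set all 8 libraries from cultures of mouse cortical neurons loaded with α-synuclein fibrils against all 8 from untreated cultures, with culture type as a covariate, and was made for changes of one direction with and without microglia. All 16 libraries of the series entered it. The cells were primary cortical neurons of C57BL/6 embryos of day 15 to 16, kept for 14 days, and each of the 4 groups had 4 libraries. Loaded neurons alone received 0.1 µM fibrils carrying the dye Atto488 for 16 h, and loaded co-cultures received the same and then stood with microglia for 6 h. Untreated neurons alone and untreated co-cultures (neurons that stood with microglia for 6 h) received no fibrils. No group received dye, monomer or another aggregate in place of fibrils, so effects of fibrils and effects of adding labelled protein cannot be told apart. The labels do not give the source of the microglia or how neurons were taken from them, nor whether libraries of a group came from separate cultures or embryos, so the spread behind each p-value is that among these libraries and may be technical.

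α-Synuclein is a small protein of the presynaptic terminal that folds into fibrils in Parkinson disease and related disorders. Fibrils added to neurons are taken up by endocytosis, pass through endosomes and lysosomes, and can seed aggregation of the cell's own α-synuclein. Microglia, the resident phagocytes of the brain, can take over aggregates from neighbouring cells. Embryonic cortical cultures hold astrocytes and cells of the oligodendrocyte lineage beside neurons.

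No gene passed the test for fibrils over both culture types: 0 of 13139 genes tested had a Benjamini-Hochberg adjusted p under 0.05 (edgeR quasi-likelihood test), and the smallest adjusted p was 0.196. At an unadjusted p under 0.05, 353 genes (2.69%) were higher in loaded cultures and 243 (1.85%) were lower, together 4.54% of the genes tested, where 657 genes would be counted if no gene differed. The groups of genes described below are therefore values and directions, not calls. The same test called 0 genes for fibrils in neurons alone (909 genes, 6.92%, at an unadjusted p under 0.05), 0 in co-culture (483 genes, 3.68%) and 0 for the difference between culture types (529 genes, 4.03%). At that unadjusted level, 4.03% of genes were higher and 2.89% lower in loaded neurons alone, and 1.54% were higher and 2.14% lower in loaded co-cultures. The difference between culture types had 1.67% of genes with the greater log2 change in co-culture and 2.35% with the greater one in neurons alone. DESeq2 called 25, 161, 100 and 139 genes in these 4 comparisons, and limma-voom called 0 in each. The fitted log2 change (loaded minus untreated, ± its standard error) had a median standard error of 0.29 among the 3013 genes whose mean log2 CPM exceeded 6, and of 0.70 over all genes tested.

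Library totals were 6511516 to 13986374 counts, with 10817 to 13079 genes detected. Rn45s, a ribosomal RNA precursor, took 9.35% to 26.8% of the counts, and 41 to 666 genes per library stood at 0 where the other libraries averaged 100 counts or more. The 23 genes of neuronal identity summed to between 1904 and 11694 CPM (counts per 1000000 counts of a library, TMM-scaled) in every library. Microglial genes summed to 772 CPM in replicate 1 of untreated co-cultures and 1412 CPM in replicate 1 of loaded co-cultures, against at most 74.8 CPM in the other 14 libraries, and P2ry12 and Tmem119 were at 0 in all 16. With both of these libraries left out, the count of called genes stayed at 0.

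Fibril changes in the absence and in the presence of microglia come from separate libraries, and agreed little across genes. Over all 13139 genes Pearson's r was 0.07 and Spearman's rank correlation 0.13, and 55.3% of genes had one direction in both. Among the 3013 genes whose mean log2 CPM exceeded 6, r was 0.31, the rank correlation was 0.26 and 57.8% had one direction. These values describe genes measured in the same 16 libraries and are not independent. Of the genes tested, 68 had an unadjusted p under 0.05 in both culture types; 44 of them (0.335% of genes tested) had one direction and 24 had opposite directions. Of the 44, 24 had a mean log2 CPM of 2 or less. The other 20 comprised 12 that were higher in loaded cultures (Akt2, Amz1, Bcas1, Chn2, Ehd1, Eif3i, Enpp6, Itpr2, Ptgr1, Sh2d1b1, Sirt2 and Tubb4b) and 8 that were lower (Bnip3, Fgd1, Kalrn, Klf6, Olfm1, Ssbp3, Syn2 and Tsix).

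**Figure D1:**
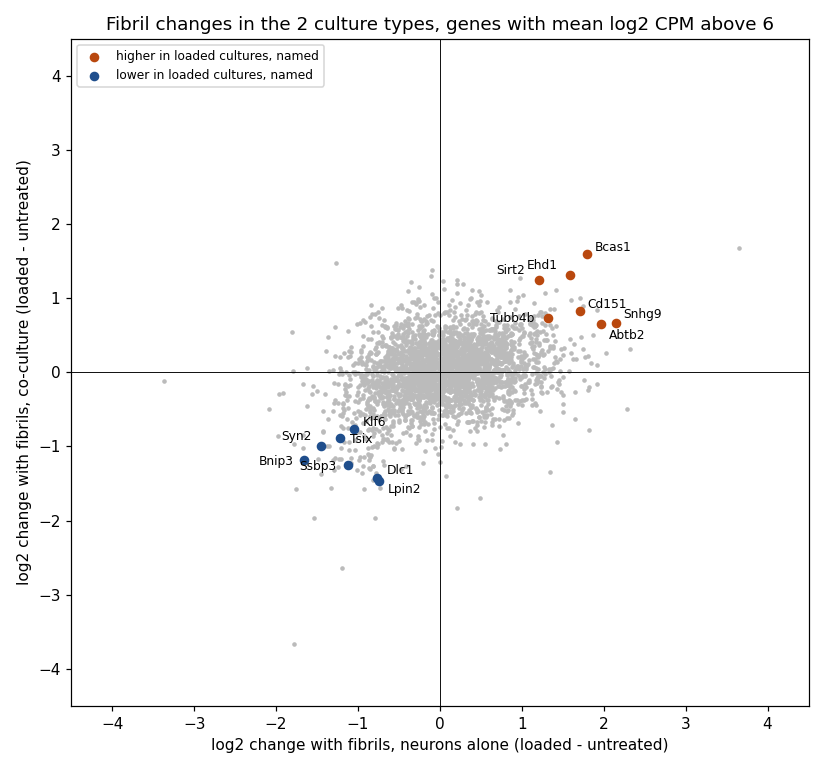
Each point is 1 of the 3013 genes whose mean log2 CPM exceeded 6, with its log2 change with fibrils in neurons alone on the x axis and in co-culture on the y axis. The 14 coloured genes are those with the smallest p in each direction, and have one sign on both axes because they were chosen for one direction in both culture types.

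Complete separation of loaded from untreated libraries in both culture types and in one direction was rare. It held for 8 genes that were higher with fibrils (0.0609% of genes tested), namely Ehd1, Eif3i, Josd2, Nme2, Phf20, Ptgr1, Rpl13a and Sirt2. It held for 3 that were lower (0.0228%), namely 1700113A16Rik, Sgsm3 and Trnt1. A further 4 genes (0.0304%) separated in both culture types in opposite directions. Neurons alone had 257 genes (1.96%) with every loaded library above every untreated one and 292 (2.22%) below, against 119 (0.906%) and 136 (1.04%) in co-culture.

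Sirt2 encodes an NAD-dependent deacetylase that acts on tubulin and is abundant in oligodendrocytes. It lies on chromosome 7 (GRCm38, 28766735 to 28788661, plus strand), and its exons overlap those of Nfkbib on the opposite strand. Its level was 151, 84.1, 139 and 147 CPM in the 4 untreated libraries of neurons alone and 375, 452, 209 and 168 CPM in the loaded ones. In co-culture it was 314, 295, 202 and 288 CPM without fibrils and 893, 808, 582 and 331 CPM with them. Every loaded library stood above every untreated library of its culture type, with the 2 loaded groups lowest in replicate 4. The log2 change was 1.23 ± 0.25 (adjusted p = 0.196), with 1.21 in neurons alone and 1.25 in co-culture.

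Ehd1, an ATPase that returns receptors from recycling endosomes to the cell surface, showed the same separation. It lies on chromosome 19 (6276725 to 6300096, plus strand), and no annotated exon of another gene overlaps its exons. Untreated neurons alone held 67.5, 108, 80.1 and 29.9 CPM and loaded ones 151, 238, 329 and 138 CPM. Co-cultures held 113, 63.5, 57.9 and 102 CPM without fibrils and 344, 142, 224 and 129 CPM with fibrils. The groups did not overlap in either culture type, and the log2 change was 1.45 ± 0.29 (adjusted p = 0.196).

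Ptgr1, a prostaglandin reductase that also reduces reactive aldehydes and is a known target of the oxidative stress factor Nrf2, was near 0 without fibrils. Its level was 1.41, 7.51, 1.67 and 0 CPM in untreated neurons alone and 28.3, 56.8, 125 and 13.2 CPM in loaded ones. The co-cultures had 0, 2.54, 1.28 and 0 CPM when untreated and 7.73, 8.14, 6.802 and 20.5 CPM when loaded. The log2 change was 3.96 ± 1.03 (adjusted p = 0.652), a fit in which 3 of the 8 untreated libraries stood at 0. The gene covers 58965439 to 58987119 on the minus strand of chromosome 4.

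The other 5 genes that were separately higher in both culture types were Eif3i, Josd2, Nme2, Phf20 and Rpl13a. Eif3i, a subunit of a translation initiation factor, ranged over 50.9 to 97.2 CPM in untreated and 102 to 173 CPM in loaded neurons alone, and over 58.7 to 105 and 107 to 165 CPM in untreated and loaded co-cultures. Nme2, a nucleoside diphosphate kinase, ranged over 173 to 329 and 341 to 838 CPM in neurons alone and over 234 to 291 and 294 to 327 CPM in co-culture, where the gap between the groups was the smaller. Phf20, a reader of methylated histones, had 9.24 to 41.8 and 52.1 to 74.4 CPM alone and 11.6 to 57.2 and 62.98 to 103 CPM with microglia. Josd2, a deubiquitinase, was low throughout, at 0 to 13.2 and 15.4 to 73.99 CPM alone and 0 to 20.2 and 21.9 to 45.6 CPM in co-culture. The 3 genes separately lower were also of low or moderate level. Trnt1, which adds the CCA end to transfer RNAs, had 28.9 to 45.1 CPM in untreated and 7.61 to 28.4 CPM in loaded neurons alone, and 23.97 to 98.1 and 0 to 19.2 CPM in co-cultures. Sgsm3 had 16.3 to 34.9 and 1.37 to 12.04 CPM alone and 10.2 to 23.98 and 0.801 to 7.56 CPM in co-culture. The predicted gene 1700113A16Rik had 59.5 to 150.3 and 16.3 to 49.8 CPM alone and 52.6 to 63.9 and 20.7 to 52.4 CPM in co-culture. All 11 were singled out after their values were seen.

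Among the 8 genes with the smallest p for higher levels were also Bcas1, Tubb4b, Abtb2, Snhg9 and Cd151. Tubb4b, a β-tubulin isotype, was 254, 309, 298 and 469 CPM in untreated and 859.8, 1033, 908 and 530.0 CPM in loaded neurons alone. Its co-culture levels were 270.4, 339, 411 and 572 CPM without and 1024, 539.7, 610.2 and 478 CPM with fibrils. Loaded libraries of neurons alone all stood above untreated ones, whereas in co-culture the highest untreated library (replicate 4) exceeded 2 loaded ones, and the log2 change was 1.03 ± 0.23 (adjusted p = 0.458). Cd151, a tetraspanin that binds laminin-binding integrins, showed the reverse, with no overlap in co-culture (26.7, 42.4, 33.4 and 25.98 CPM untreated against 43.1, 87.5, 47.4 and 49.9 CPM loaded) and 1 loaded library within the untreated range in neurons alone (115, 115, 106 and 32.00 against 189, 484, 422 and 108 CPM). For Cd151 the log2 change was 1.27 ± 0.33 (adjusted p = 0.652).

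Abtb2 and Snhg9 were less even between the culture types. Abtb2, an ankyrin repeat and BTB domain protein, had 14.99, 9.93, 16.5 and 24.8 CPM in untreated and 50.7, 86.04, 65.4 and 57.6 CPM in loaded neurons alone, but overlapping groups in co-culture (167, 66.7, 112 and 66.4 against 195, 219, 128 and 106 CPM). Snhg9, a small nucleolar RNA host gene whose exon overlaps Rps2 on the opposite strand, had 70.7, 166, 171 and 81.04 against 517, 744, 696 and 204 CPM alone and 191, 105, 262 and 353 against 593, 315, 303 and 239 CPM in co-culture. Their log2 changes were 1.97 in neurons alone and 0.66 in co-culture for Abtb2 and 2.14 in neurons alone and 0.67 in co-culture for Snhg9. The unadjusted p for the difference between culture types was 0.0294 and 0.0225, with an adjusted p of 1 for both by edgeR.

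**Figure D2:**
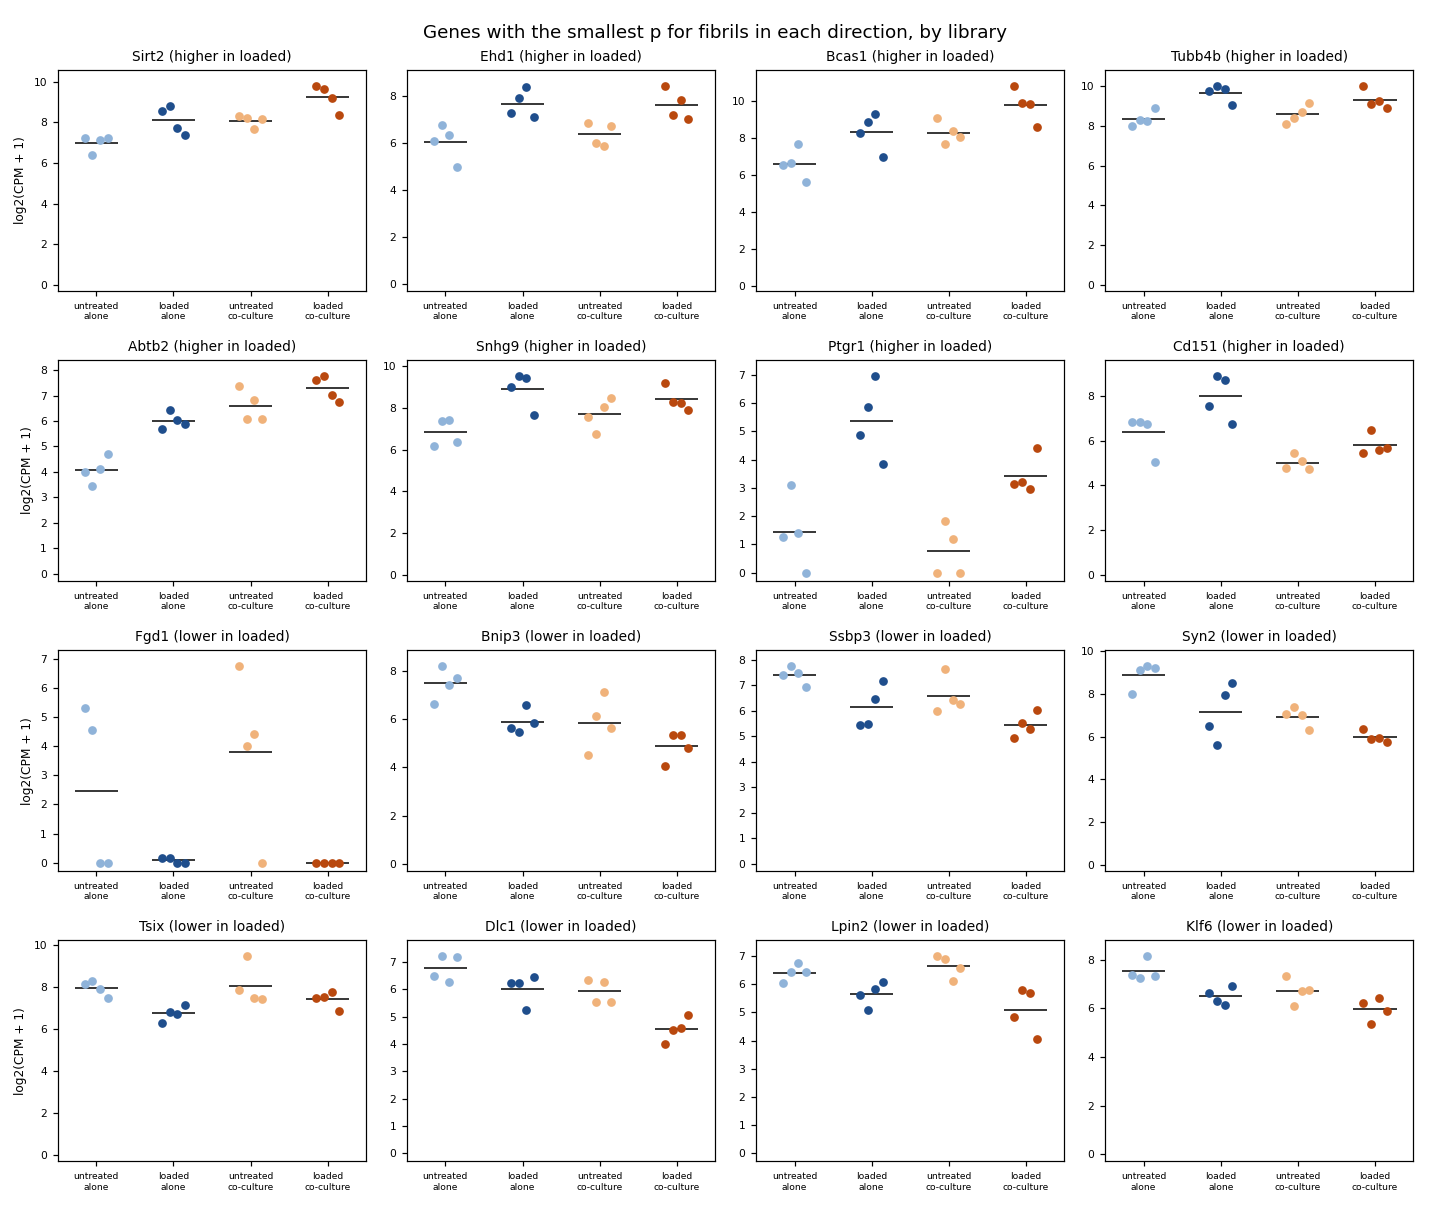
Each panel shows 1 gene, with a point per library (log2 of CPM + 1) by group and a line at the mean of the 4 points; the upper 8 genes are those with the smallest p for a higher and the lower 8 for a lower level in loaded cultures. Of the 16 genes, 3 show no overlap between loaded and untreated libraries in both culture types, 6 in neurons alone and not in co-culture, 3 in co-culture and not in neurons alone, and 4 overlap in both.

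The library of loaded neurons alone with replicate number 4 lay nearest to the untreated libraries in most of these genes. It was the lowest of its group in 7 of the 8 genes with higher levels, and the highest in 6 of 7 genes with lower levels, Fgd1 left aside. Its excitatory neuron genes summed to 8255 CPM, against 1707 to 4854 CPM in the other 3 loaded libraries of neurons alone. Loaded co-culture replicate 4 was the lowest of its group in 6 of the 8 higher genes. The part of these libraries' makeup in the result was not tested. Without loaded replicate 4 of neurons alone, the comparison over both culture types still called 0 genes, while that within neurons alone called 7: Col11a1, Flna, Snhg9 and Taldo1 higher, and 3 genes lower, among them Kcnq3 and Lrrc4c.

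Lower levels in both culture types included Bnip3, Syn2, Ssbp3, Klf6 and Tsix. Bnip3, a mitochondrial receptor for mitophagy and a classic hypoxia-induced gene, had 97.2, 292, 169 and 204 CPM in untreated and 48.6, 43.3, 93.96 and 56.2 CPM in loaded neurons alone, which did not overlap. The co-cultures had 21.8, 68.2, 137 and 47.7 CPM untreated and 15.5, 38.9, 39.7 and 26.6 CPM loaded, which overlapped through 1 untreated library. The log2 change of Bnip3 was -1.42 ± 0.34 (adjusted p = 0.652).

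Syn2, which encodes synapsin II of the synaptic vesicle surface, had 253, 549, 634 and 594 CPM in untreated and 89.1, 47.6, 242 and 364 CPM in loaded neurons alone. With microglia it had 131, 168, 127 and 78.6 CPM untreated and 80.9, 58.8, 60.5 and 52.7 CPM loaded. In each culture type 1 untreated library lay within the loaded range, and the log2 change was -1.22 ± 0.32 (adjusted p = 0.652). Ssbp3, a cofactor of LIM homeodomain transcription complexes, had a log2 change of -1.19 ± 0.31 (adjusted p = 0.652), with 168, 218, 179 and 121 against 42.9, 43.3, 86.99 and 143 CPM alone and 62.4, 201, 84.7 and 76.5 against 29.96, 45.4, 37.7 and 64.5 CPM in co-culture.

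Klf6, an injury-induced zinc finger transcription factor, separated in neurons alone (163, 152, 283 and 160.2 CPM untreated, 97.8, 78.7, 69.3 and 119 CPM loaded) and overlapped in co-culture (158, 67.4, 103 and 106 and 72.9, 39.6, 85.7 and 57.7 CPM). The log2 change of Klf6 was -0.91 ± 0.25. Tsix, the antisense transcript of Xist, had a log2 change of -1.05 ± 0.28, but reads of Tsix and Xist cannot be told apart without the strand setting of the counting, which is not given in the sources used here. Dlc1, a GTPase-activating protein, and Lpin2, a phosphatidate phosphatase, separated in co-culture and not in neurons alone. Dlc1 had 80.6, 45.8, 75.3 and 45.3 CPM untreated and 14.8, 21.7, 22.9 and 32.3 CPM loaded there, and Lpin2 128, 118, 68.3 and 95.5 and 27.4, 54.1, 50.6 and 15.7 CPM. Over both culture types their log2 changes were -1.09 ± 0.30 and -1.11 ± 0.30 (adjusted p = 0.664 for both).

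Fgd1, an exchange factor for the GTPase Cdc42, had the smallest p of all genes (adjusted p = 0.196). Its raw counts were 331, 197, 0 and 0 in untreated neurons alone and 1369, 106, 269 and 0 in untreated co-cultures, against 1, 1, 0 and 0 in loaded neurons alone and 0 in all 4 loaded co-cultures. Summed over libraries this is 2272 counts untreated and 2 loaded, a ratio of 1082 per counted read. The exact 95% interval of 299 to 8940 treats reads as independent and leaves out the spread between libraries. Replicate 1 of untreated co-cultures held 1369 of the 2272 counts. As 3 of the 8 untreated libraries stood at 0 as well, the groups overlap in both culture types. Fgd1 overlaps Tsr2 on the opposite strand of chromosome X.

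Oligodendrocyte lineage genes, which mark the myelin-forming glia and their precursors, were mostly higher in both culture types. Of 17 tested genes, 14 were higher in loaded cultures (over all genes tested 46.6% were higher), with a median log2 change of 0.66, or 0.58 in neurons alone and 0.50 in co-culture; the medians over all genes were -0.05, -0.06 and -0.04. An unadjusted p under 0.05 was reached by 6 genes that were higher and 1 that was lower, and 0 passed the adjusted threshold. Over all genes tested, 2.69% were higher and 1.85% lower at that unadjusted level. In bulk libraries, more cells of a type and more RNA per cell cannot be told apart.

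The direction differed by stage within this lineage, in a split of the list made after the values were seen. Bcas1, which marks newly forming oligodendrocytes, had 92.6, 98.4, 206 and 47.6 CPM in untreated and 314, 477, 628 and 124 CPM in loaded neurons alone, and 556, 209, 330.0 and 265 and 1858, 964, 917 and 390.3 CPM in co-culture. Its log2 change was 1.70 ± 0.36 (adjusted p = 0.413), with 1 loaded library in each culture type inside the untreated range. Gpr17, a receptor of the same transition, had 91.3, 109, 197 and 134 CPM untreated and 643, 566, 293 and 117 CPM loaded in neurons alone, and 1691, 303, 398 and 517 and 3059, 1448, 679 and 556 CPM in co-culture. The groups of Gpr17 overlapped in both culture types, and the log2 change was 1.29 ± 0.45 (adjusted p = 0.803). Enpp6, a choline phosphodiesterase of forming oligodendrocytes, had 24.5, 15.4, 10.8 and 19.1 and 41.6, 29.7, 27.8 and 35.5 CPM alone and 73.2, 60.5, 37.8 and 128 and 231, 132, 95.2 and 148 CPM in co-culture, a log2 change of 0.98 ± 0.30 (adjusted p = 0.664). Cnp, a membrane enzyme of oligodendrocytes, had a log2 change of 1.32 ± 0.34 (adjusted p = 0.652).

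Precursor genes did not share this direction. Pdgfra, a growth factor receptor that marks the precursors, had 121, 65.3, 73.6 and 87.6 CPM in untreated and 52.2, 23.5, 22.8 and 50.3 CPM in loaded neurons alone, which did not overlap. In co-culture it had 504, 419, 342 and 498 CPM untreated and 136, 264, 261 and 525 CPM loaded, where replicate 4 of the loaded group was the highest of all 8. Its log2 change was -0.89 ± 0.27 (adjusted p = 0.664), against 0.19 ± 0.30 for Cspg4 and -0.05 ± 0.33 for Lhfpl3, also precursor genes. Of 5 transcription factors of the lineage, 4 were higher (median 0.70, or 1.11 in neurons alone and 0.26 in co-culture). Sox10 had a log2 change of 0.70 ± 0.39, Sox8 of 0.75 ± 0.35 and the sparse gene Nkx2-2 of 1.43 ± 1.13, against 0.26 ± 0.25 for Olig1 and -0.00 ± 0.31 for Olig2.

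Summed over Gpr17, Bcas1, Enpp6 and Plxnb3, the level of forming-stage genes was 212, 244, 442 and 212 CPM in untreated and 1005, 1088, 959 and 289 CPM in loaded neurons alone. It was 2393, 605, 810.2 and 983 CPM in untreated and 5239.9, 2619.5, 1759 and 1176 CPM in loaded co-cultures. The sum over Pdgfra, Cspg4 and Lhfpl3 was 172 ± 69.6 and 123 ± 29.4 CPM in neurons alone, and 907 ± 233 and 798 ± 230.0 CPM in co-culture (SD, n = 4). The forming-stage to precursor ratio ranged over 0.777 to 3.36 in untreated and 3.16 to 9.05 in loaded neurons alone. In untreated co-cultures it ranged over 0.757 to 1.98. In loaded co-cultures it was 10.3 in replicate 1, but 2.45, 2.26 and 1.41 in replicates 2, 3 and 4. Loaded co-culture replicate 1 also had the highest microglial sum (1412 CPM), the lowest total (6511516 counts) and the most genes at 0 where other libraries averaged 100 counts or more (666). The ratios of loaded and untreated libraries overlapped narrowly in each culture type.

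**Figure D3:**
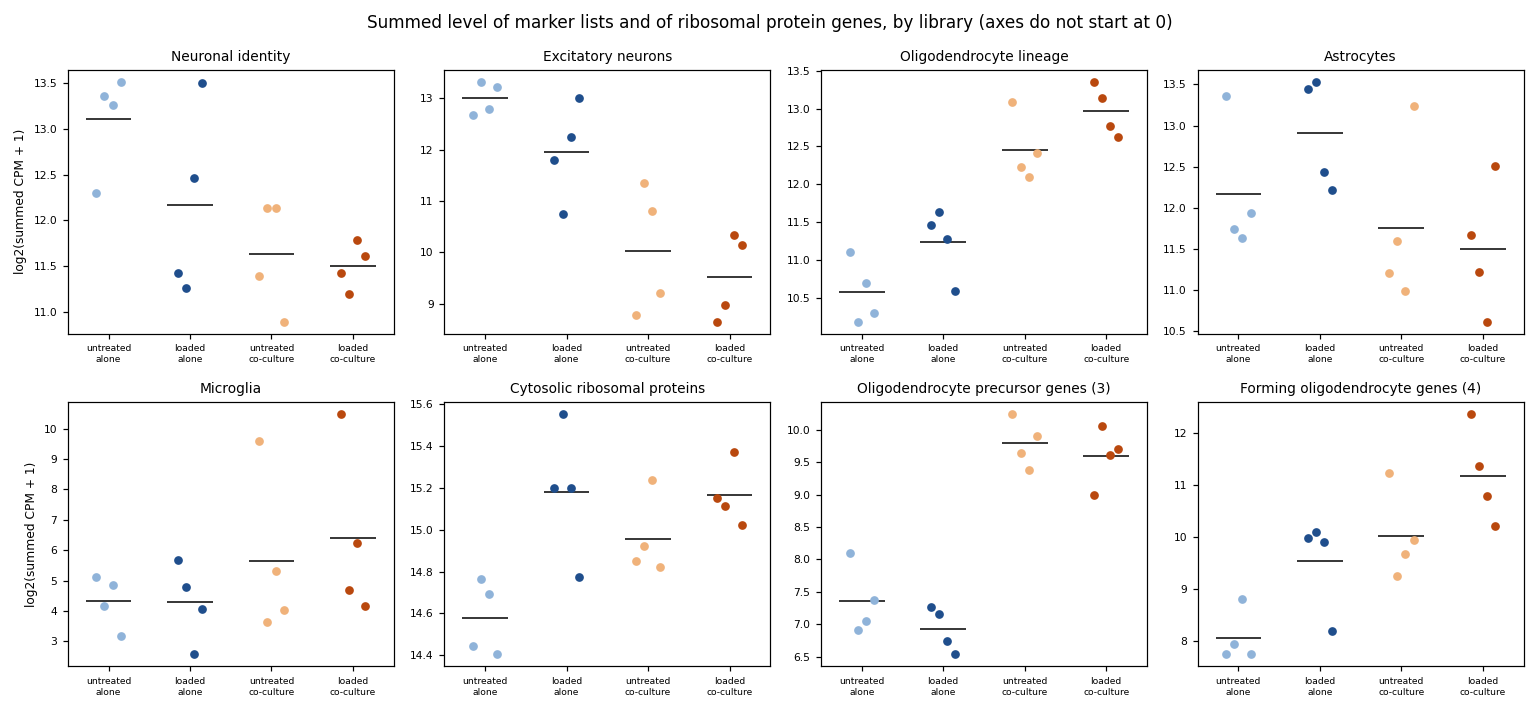
Each point is the summed level of a gene list in 1 library, as log2 of summed CPM + 1 on axes that do not start at 0, with a line at the mean of the 4 points of a group. Forming-stage oligodendrocyte genes stand higher in most loaded libraries of both culture types, precursor genes do not, and excitatory neuron genes stand lower in 3 of 4 loaded libraries of neurons alone.

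Genes of neurons and synapses were lower in loaded cultures, with wide spread. Of 28 presynaptic genes, 25 were lower (53.4% of all genes tested were lower), with a median log2 change of -0.62. The median was -0.77 in neurons alone and -0.42 in co-culture. An unadjusted p under 0.05 was reached by 4, all lower (1.85% of all genes tested were lower at this level). These were Syn2, the active zone scaffolds Bsn (-1.20 ± 0.47, adjusted p = 0.9) and Pclo (-1.02 ± 0.45, adjusted p = 1), and Rims1 (-0.87 ± 0.37, adjusted p = 1), which docks vesicles. Of 25 postsynaptic genes, 20 were lower, with a median of -0.52. The smallest p were those of Camk2n1, an inhibitor of the kinase CaMKII (-0.60 ± 0.24, adjusted p = 0.9), and the scaffold protein Dlgap1 (-0.52 ± 0.24, adjusted p = 1). Of 25 immediate early genes, which follow neuronal activity, 24 were lower, but 0 reached an unadjusted p under 0.05. All 25 were lower in neurons alone (median -0.91), against 17 lower and 8 higher in co-culture (median -0.29). Over both culture types their median was -0.78. That median was -0.49 without untreated neurons alone replicate 2 or loaded neurons alone replicate 1, and -1.22 without loaded neurons alone replicate 4. The presynaptic median was -0.38 without untreated co-culture replicate 3. The immediate early gene that was higher was Nr4a3 (0.58 ± 0.73).

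Fos, the founding member of the immediate early genes, had 93.5, 162, 175 and 73.2 CPM in untreated and 2.11, 39.3, 28.2 and 63.7 CPM in loaded neurons alone, with no overlap. In co-culture it had 24.3, 72.6, 154 and 61.2 and 14.4, 97.4, 88.2 and 58.3 CPM, with overlap, and a log2 change of -1.09 ± 0.56 over both (adjusted p = 1). Egr3 had a log2 change of -1.30 ± 0.69 (adjusted p = 1).

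Markers of neurons as such were lower beside these lists. Of 23 genes of neuronal identity, 20 were lower (median -0.48), and of 16 excitatory neuron genes 15 were lower (median -0.70). The neuronal median was -0.73 without loaded neurons alone replicate 4, and the excitatory median -0.30 without untreated co-culture replicate 2. Among the most abundant of these, Nrgn, a calmodulin-binding protein of dendrites, had a log2 change of -0.89 ± 0.43, Camk2a -1.04 ± 0.50 and Mef2c -0.60 ± 0.49. The most abundant genes of neuronal identity, Map2, Syt1 and Nsg1, had 0.03 ± 0.21, -0.99 ± 0.72 and -0.17 ± 0.33. The excitatory sum was 6509, 10239.9, 7063 and 9495 CPM in untreated and 3541, 1707, 4854 and 8255 CPM in loaded neurons alone, and 438, 2602, 1779 and 593 and 399.8, 502, 1287 and 1121 CPM in co-culture. Loaded and untreated libraries overlapped in both culture types. The neuronal identity sum ranged over 5020.2 to 11694 CPM in untreated and 2463 to 11598 CPM in loaded neurons alone, and over 1904 to 4504 and 2349.7 to 3540.5 CPM in co-culture. In untreated neurons alone, replicate 1 had the lowest neuronal sum (5020.2 CPM) and the highest astrocyte sum (10478 CPM). Neuronal markers' part in the lower synaptic and activity genes was not tested. Sncb, which encodes β-synuclein of the presynaptic terminal, had a log2 change of -0.86 ± 0.79 (adjusted p = 1).

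Targets of the hypoxia-inducible factor HIF were also mostly lower. HIF accumulates at low oxygen and switches on genes of glycolysis, angiogenesis and mitophagy by binding the core letters ACGTG. Of 17 tested targets, 14 were lower in loaded cultures and 3 were higher (53.4% of all genes tested were lower). In both culture types 9 of the 17 were lower (3969 of all 13139 genes tested), and in neurons alone 6 were higher. The list's median log2 change was -0.49 (-0.70 in neurons alone and -0.70 in co-culture), or -0.32 without untreated co-culture replicate 4. An unadjusted p under 0.05 was reached by 5, all lower (1.85% of all genes tested were lower at this level). Beside Bnip3 the 5 were Bnip3l, its paralogue in mitophagy (-0.82 ± 0.32, adjusted p = 0.869), and the sparse genes Ndrg1, Car12 and Ankrd37. Ndrg1, a stress-induced differentiation gene, had 6.09, 29.8, 46.3 and 0 CPM in untreated and 0, 0, 0 and 1.05 CPM in loaded neurons alone, and 0, 0, 6.03 and 0 and 0, 0, 0 and 0 CPM in co-culture. It was above 2 CPM in 4 untreated libraries and in no loaded one. Vegfa, the angiogenic growth factor, had a log2 change of 0.00 in neurons alone and -1.21 in co-culture, where untreated (85.3 to 357 CPM) and loaded libraries (43.8 to 136 CPM) overlapped. The difference between culture types did not pass the test for Vegfa (unadjusted p = 0.0589, adjusted p = 1 by edgeR). Ddit4, an inhibitor of the kinase mTOR, had -0.19 ± 0.38, and the oxidoreductase Ero1a -0.49 ± 0.54. The summed HIF target level was 1092 to 1421 CPM in untreated and 802 to 1158 CPM in loaded neurons alone, and 866 to 1339 and 605 to 904 CPM in co-culture, so the groups overlapped at 1 edge in each.

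The ACGTG core was searched on both strands of RefSeq promoter windows (GRCm38.p6, 250 bases before to 50 after each start). It was found in 11 of the 15 HIF targets with a window, against 29.4% of the 10453 tested genes with one, and in 12 of 21 windows (57.1%) against 25.1% of all windows. The list was made of known HIF targets, so this excess describes the list and is not a result about fibrils. The match was not compared with the size of the change. Windows of Bnip3, the clearest lower gene, of Ero1a and of Ddit4 are printed 5′ to 3′ on the gene's strand with the matched letters in capitals (CACGTG in Bnip3 is 2 overlapping matches, 1 on each strand), at chr7:138909589-138909634, chr14:45318611-45318655 and chr10:59951933-59951977, all on the minus strand.
Bnip3: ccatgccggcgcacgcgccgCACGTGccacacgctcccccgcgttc
Ero1a: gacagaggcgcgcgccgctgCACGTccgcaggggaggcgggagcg
Ddit4: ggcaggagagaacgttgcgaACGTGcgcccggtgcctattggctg

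Ribosomal protein genes were higher as a group. Of 76 cytosolic ribosomal protein genes, 64 were higher in loaded cultures (46.6% of all genes tested were higher). In both culture types 53 of the 76 were higher (3294 of all 13139 genes tested). The list's median log2 change was 0.39, or 0.58 in neurons alone and 0.15 in co-culture. An unadjusted p under 0.05 was reached by 30, all higher (2.69% of all genes tested were higher at this level), and 0 passed the adjusted threshold. Their summed level was 22336, 27872, 26464 and 21691 CPM in untreated and 37634, 47913, 37591 and 28010.4 CPM in loaded neurons alone, which did not overlap. It was 29539, 31004, 38582 and 28956 CPM in untreated and 36313, 35359, 42359 and 33215 CPM in loaded co-cultures, where the highest untreated library exceeded 3 loaded ones. Ribosomal protein genes have many processed pseudogenes, between which the counting could have split reads.

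Rplp1, a protein of the ribosomal stalk, had 827, 1262, 1304 and 825 CPM in untreated and 2456, 3059, 2155 and 1449.8 CPM in loaded neurons alone, and 1008, 818, 1605 and 1306 and 1889, 1356, 1946 and 1362 CPM in co-culture. Its log2 change was 0.79 ± 0.22 (adjusted p = 0.664). Rpl13a, a large subunit protein, was the member without overlap in both culture types, at 302, 489, 530.1 and 472 against 763, 1017, 812 and 554 CPM alone and 637, 633, 634 and 565 against 1409.8, 782, 847 and 676 CPM in co-culture (0.70 ± 0.20, adjusted p = 0.664). Not all members followed. Rpl30 was listed at 32.2, 246, 33.03 and 294 CPM in untreated and 64.2, 9.95, 0.821 and 79.3 CPM in loaded neurons alone, a spread over libraries of one group that most other members did not have.

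Messages of ribosomal proteins often begin with a run of pyrimidines that ties their translation to mTOR. A run of 7 or more C or T within 5 bases of the start was found in 26 of 56 ribosomal protein genes with a RefSeq window (46.4%), against 17.2% of all 10453 genes. The RefSeq start of Rpl13a, at chr7:45128726-45128755 on the minus strand, and that of Rps2, at chr17:24720053-24720082 on the plus strand and without such a run, show what was searched for (the run in capitals). In GENCODE an exon of Rps2 overlaps Snhg9, which ends at 24719965, so annotated Rps2 sequence also lies before this window. Both stretches are examples, and the run was not compared with the size of the change. The share of genes with a run describes the list and is not a result about fibrils. Rps2, a small subunit protein, had a log2 change of 0.05 ± 0.32. Rplp0, a stalk protein also without the run within 5 bases of its start, had 0.47 ± 0.23, with 1.00 in neurons alone and -0.06 in co-culture.
Rpl13a: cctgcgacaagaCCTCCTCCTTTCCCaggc
Rps2: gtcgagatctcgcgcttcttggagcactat

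**Figure D4:**
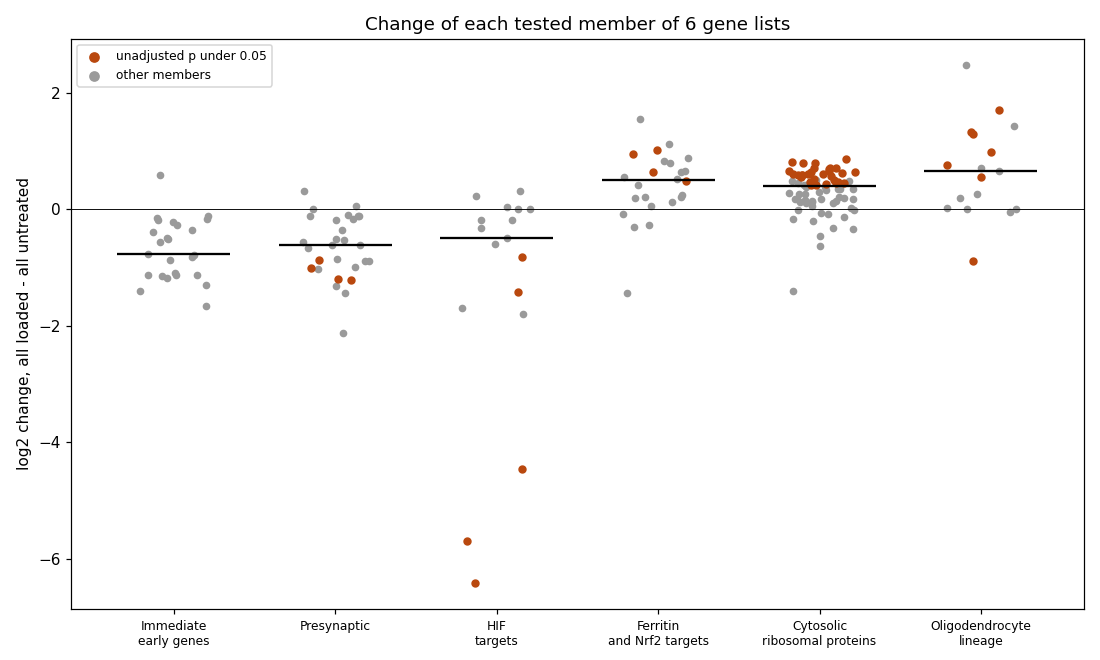
Each point is 1 tested member of a gene list, with its log2 change (all loaded minus all untreated) on the y axis and a line at the list's median; members with an unadjusted p under 0.05 are coloured. Of the ribosomal protein genes 64 of 76 lie above 0, and of the immediate early genes 24 of 25 lie below it without a coloured point.

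Antioxidant genes were higher, but mostly in neurons alone. For no gene did the difference between culture types pass the edgeR test. Of 24 ferritin and Nrf2 target genes, 20 were higher over both culture types (median 0.51), with medians of 1.04 in neurons alone and -0.01 in co-culture. Ftl1, the ferritin light chain that stores iron, had 2016, 1058, 1304 and 749 CPM in untreated and 3266, 4454, 3121 and 1295 CPM in loaded neurons alone, and 1088, 781, 759 and 1123 and 2628, 1278, 904 and 1126 CPM in co-culture. Its log2 change was 0.95 ± 0.27 (adjusted p = 0.664), with overlap in both culture types. The metal-binding metallothionein Mt2 had 5172, 6313, 5850.1 and 3935 against 23049, 33403, 8834 and 8949 CPM in neurons alone, without overlap, and 3805, 3440.2, 4509 and 7881 against 2287, 5312, 3816 and 11576 CPM in co-culture, with overlap (1.02 ± 0.40, adjusted p = 0.911). Genes of astrocytes, cells that express antioxidant enzymes strongly, followed the same division. All 18 were higher in loaded neurons alone and 15 of 18 were lower in loaded co-cultures, with sums of 3169.7 to 10478 and 4754 to 11859 CPM untreated and loaded alone and 2031 to 9663 and 1570.0 to 5829 CPM in co-culture, and Gjb6 at 0 in 4 libraries and Gpc5 in 2. The most abundant of them, the glutamate transporters Slc1a2 and Slc1a3 and the aldolase Aldoc, had log2 changes of -0.17 ± 0.46, -0.16 ± 0.43 and 0.28 ± 0.46 over both culture types. The part of astrocyte RNA in the antioxidant genes was not tested.

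Related enzymes also had greater medians in neurons alone than in co-culture. Of 19 glutathione transferases and peroxidases 14 were higher, with medians of 0.72 in neurons alone and 0.20 in co-culture. In co-culture 12 of the 19 were still higher. Of 13 enzymes of the pentose phosphate route and NADPH supply 9 were higher, with medians of 0.78 in neurons alone and -0.08 in co-culture. Taldo1, transaldolase of that route, had a log2 change of 1.03 ± 0.30 (adjusted p = 0.664), with 1.74 in neurons alone and 0.31 in co-culture. G6pdx, the first enzyme of the route, had 1.17 ± 0.51 (adjusted p = 1). Gsto1, an omega-class glutathione transferase, had 0.61 ± 0.29, and the sparse gene Ggct -3.53 ± 1.75 (adjusted p = 1 for both). Nuclear genes of the respiratory chain were higher in 55 of 75 cases, with medians of 0.40 in neurons alone and -0.02 in co-culture. Ndufb7, a subunit of complex I, had 0.92 ± 0.28 (adjusted p = 0.664), with 1.04 in neurons alone and 0.79 in co-culture, and Ndufa2 of the same complex 0.72 ± 0.25 (adjusted p = 0.735). Glycolysis genes were lower in 14 of 24 cases overall but in 22 of 24 in co-culture, where the median was -0.37. Triosephosphate isomerase Tpi1 had -0.77 ± 0.30 (adjusted p = 0.865) and the aldolase Aldoa -0.63 ± 0.25 (adjusted p = 0.9), each lower in both culture types.

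**Figure D5:**
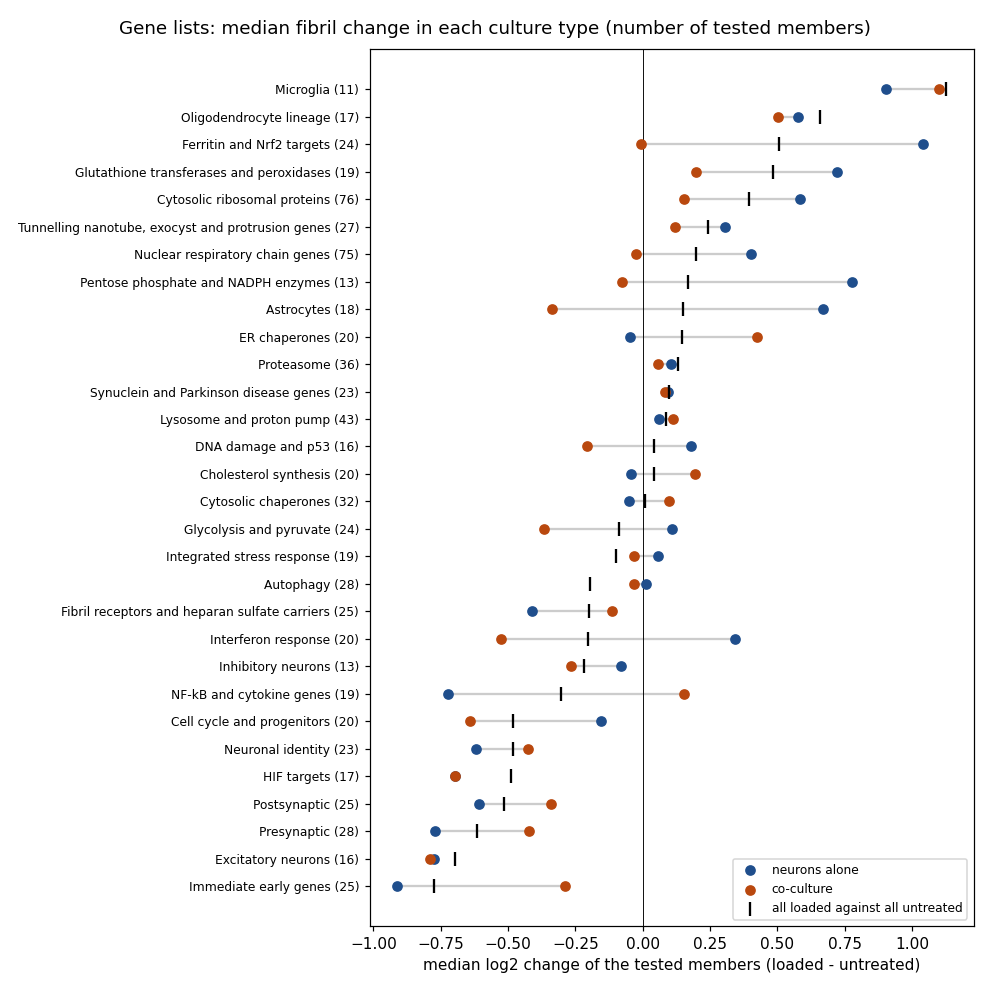
For each gene list with at least 5 tested members (number in brackets), the points give the median log2 change in neurons alone and in co-culture and the tick that over all loaded against all untreated libraries. Oligodendrocyte, ribosomal, synaptic and HIF lists lie on one side of 0 in both culture types, whereas antioxidant, astrocyte, interferon and NF-kB lists lie apart or on opposite sides.

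Lists of proteasome, lysosome, autophagy and chaperone genes had medians of -0.19 to 0.15, against -0.05 over all genes. Of 36 proteasome genes 23 were higher (median 0.13), with 6 at an unadjusted p under 0.05, all higher (2.69% of all genes tested were higher at this level). Psmd13, a subunit of the regulatory lid, had 0.96 ± 0.33 (adjusted p = 0.773), with 0.94 in neurons alone and 0.97 in co-culture, and the ATPase subunit Psmc3 0.67 ± 0.23 (adjusted p = 0.735). Of 43 lysosome and proton pump genes 27 were higher (median 0.09), and of 28 autophagy genes 13 were higher (median -0.19). The cholesterol carrier Npc2 had 0.67 ± 0.32 (adjusted p = 1), the proton pump subunit Atp6v1e1 -0.44 ± 0.21 (adjusted p = 1), the autophagy starter Rb1cc1 -0.63 ± 0.24 (adjusted p = 0.881) and the ATG8 protein Gabarap 0.55 ± 0.22 (adjusted p = 0.917). Of 32 cytosolic chaperones 16 were higher (median 0.01), and of 20 chaperones of the endoplasmic reticulum 14 were higher (median 0.15, or -0.05 in neurons alone and 0.42 in co-culture), with 18 higher in co-culture and 3 at an unadjusted p under 0.05, all higher. Cct3, of the chaperonin that folds actin and tubulin, had 0.62 ± 0.21 (adjusted p = 0.735) and the cochaperone Dnajc7, whose exons overlap Cnp on the opposite strand, 0.35 ± 0.22 (adjusted p = 1). Pdia4, a disulfide isomerase, had 1.10 ± 0.33 (adjusted p = 0.664) and the chaperone Hyou1 0.71 ± 0.32 (adjusted p = 1).

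Fibril receptors and heparan sulfate carriers were lower in 15 of 25 cases (median -0.20). The neurexin Nrxn3 had -0.75 ± 0.39 (adjusted p = 1). Tunnelling nanotube, exocyst and protrusion genes were higher in 19 of 27 cases (median 0.24), with the actin crosslinker Flna at 1.18 ± 0.36 (adjusted p = 0.664) and the small GTPase Rab8a at 0.56 ± 0.23 (adjusted p = 0.972). Parkinson disease genes were higher in 14 of 23 cases (median 0.10) with 0 at an unadjusted p under 0.05, among them Fbxo7 at 0.64 ± 0.32 and Synj1 at -0.57 ± 0.32. Interferon genes (9 of 20 higher) and NF-kB and cytokine genes (7 of 19 higher) also had 0 at that level, with Oasl2 at 2.91 ± 2.04, B2m at -0.63 ± 0.49, Nfkb2 at 1.67 ± 1.29 and Nfkbia at -0.42 ± 0.34. The integrated stress response (9 of 19 higher), cholesterol synthesis (11 of 20) and p53 lists (9 of 16) had medians of -0.10, 0.04 and 0.04. In these lists the members with the smallest p were Eif4ebp1, a brake on translation (1.59 ± 0.65), and the transcription factor Atf5 (0.72 ± 0.29), the sterol enzymes Fdps (0.68 ± 0.43) and Pmvk (0.60 ± 0.41), and the kinase Plk2 (-1.37 ± 0.53) and the apoptosis gene Bax (0.84 ± 0.45), at adjusted p of 0.869 or more. The microglial list had 10 of 11 tested genes higher (median 1.13, or 0.35 to 3.18 with 1 library left out, the lowest without loaded and the highest without untreated co-culture replicate 1), with sums that overlapped in both culture types (8.001 to 33.5 and 4.92 to 50.4 CPM alone) and Csf1r, C1qa and Ctss, its most abundant genes, at 0.93 ± 2.22, 3.37 ± 1.89 and 1.13 ± 1.92. Inhibitory neuron genes were lower in 9 of 13 cases, with Npy and Gad1, among the most abundant, at 0.49 ± 1.42 and -0.60 ± 0.81. Of 20 cell cycle genes 17 were lower (median -0.48, or -0.26 without untreated neurons alone replicate 1, -0.31 without loaded co-culture replicate 1 and -0.76 without loaded neurons alone replicate 1), and all 20 were lower within co-culture, where the sum was 2467, 2741, 2802 and 2069 CPM untreated and 642, 1479, 2016 and 2189 CPM loaded, and the most abundant, Top2a, Hmgb2 and Cenpf, had 0.13 ± 0.47, -0.18 ± 0.30 and 0.07 ± 0.31 over both culture types. Vascular and fibroblast genes left 1 tested gene.

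Differences between the culture types did not pass the test for any gene. The 3 genes with the smallest p were the pseudogene Atp6v0c-ps2, the complex I gene Ndufb4 and the WD repeat gene Wdr83 (adjusted p = 1 for each). Ndufb4 had 30.3, 55.2, 37.02 and 26.9 CPM in untreated and 119, 141, 73.4 and 137 CPM in loaded neurons alone, and 50.2, 61.9, 91.2 and 117 against 73.5, 42.9, 39.7 and 50.5 CPM in co-culture. Loaded libraries of Ndufb4 thus stood above untreated ones alone and overlapped with them, on the lower side, in co-culture.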

How the data were processed

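The 16 RNA libraries were made with the QuantSeq forward 3′ kit, per the labels' protocols, so a count reflects transcripts and not gene length. Reads were aligned with STAR to mm10 and handled in Partek and DESeq2, per the submitters' processing notes. The counting tool, strand setting, annotation and use of molecular identifiers are not given in the sources used here. Raw counts of 16934 genes were deposited by the authors, with totals of 6511516 to 13986374 per library. The authors also deposited normalized values in whole numbers, treated here as a score; 99.99% of them were within 0.6 of a raw count multiplied by 1 factor per library. Replicate numbers follow the library codes in the sample titles, which form 4 runs of neighbouring codes with 1 library of each group; the labels do not say what libraries of a run share. No pair of libraries within a group agreed within sampling noise (chi-square per degree of freedom 67.5 to 253). The interval given for Fgd1 treats each read as independent. PCR copies are not independent molecules, so it may be too narrow even for counting error.

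In R 4.3.3, edgeR 4.0.16 kept 13139 genes (filterByExpr by the 4 groups, minimum count 10, minimum total 15), scaled them by TMM, and fitted a robust quasi-likelihood model with culture type and fibrils as additive terms. Within-culture contrasts and their difference came from a fit with a mean per group. Genes with a Benjamini-Hochberg adjusted p under 0.05 were called. Standard errors are the log2 change divided by the square root of F. CPM use the TMM scaling. Alternatives were DESeq2 1.42.0, limma 3.58.1 (voom, and trend on the normalized values), other scalings, filters, designs and left-out libraries. Code was tested on simulated data. Positions are from GENCODE (GRCm38), with 96.2% of symbols matching 1 gene, and promoter windows are from RefSeq (GRCm38.p6). Python 3.11.15 with pandas 2.3.3 and matplotlib 3.10.9 was used for tables and plots.

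As 0 genes were called, the genes named are the 8 with the smallest p in each direction with a mean log2 CPM above 2 and one direction in both culture types (predicted genes skipped), the 3 with the smallest p for the difference between culture types, the 2 with the smallest p of each of 23 pathway lists, the most abundant 3 of each of 8 cell type lists, and the synucleins. A few genes that this rule names are not reported here. Other members of lists were named after their values were seen. The members, lists and tests were chosen with earlier results of these data known. No set test was run: lists are described by counts and medians.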

Additional observations from a re-analysis of the deposited data

Results flagged for a closer look

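In 96 groups of 4 libraries, formed by the 16 named genes and the 8 cell type sums, 5 held a library far from the other 3, by a gap over 0.829 of the group's whole range on the log2 scale; chance gives about 1 in 20 such groups. Sirt2 was 84.1 CPM in untreated neurons alone replicate 2, against 139 to 151 CPM in the others. Cd151 was 32.0 CPM in untreated neurons alone replicate 4, against 106 to 115 CPM. Syn2 was 253 CPM in untreated neurons alone replicate 1, against 549 to 634 CPM, and this library also had the lowest neuronal sum of its group. Klf6 was 283 CPM in untreated neurons alone replicate 3, against 152 to 163 CPM. Ptgr1 was 20.5 CPM in loaded co-culture replicate 4, against 6.80 to 8.14 CPM. In Sirt2, Cd151, Klf6 and Ptgr1 the outlying library lay on the side away from the other fibril state, and in Syn2 on the side toward it.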

How the results depend on the processing

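The count of 0 called genes over both culture types held under limma-voom, limma-trend on the authors' normalized values, DESeq2 size factors, library totals, Rn45s left out, both filters, both other designs, a fold threshold of 1.2 and each left-out library (range 0 to 0), and differed with DESeq2, which called 25 (20 higher, 5 lower). DESeq2 also called 161 genes in neurons alone, 100 in co-culture and 139 for the difference, where limma-voom, library totals and no filter gave 0; the cause was not tested. Leaving out 1 library gave 0 to 7 called genes in neurons alone, 0 to 0 in co-culture and 0 to 0 for the difference. The 7 came without loaded neurons alone replicate 4. Of the 16 named genes, DESeq2 called 10 (Sirt2, Ehd1, Bcas1, Tubb4b, Snhg9, Cd151, Ssbp3, Syn2, Tsix and Klf6), and no direction reversed. Library totals turned the sign of the medians of the cholesterol, cytosolic chaperone and p53 lists, all near 0. The stress response median (-0.10) was above 0 with limma-voom (0.15), the replicate block (0.08) and no culture covariate (0.16), and without any 1 of 5 libraries (up to 0.12, without untreated co-culture replicate 3). The NF-kB median (-0.30) was above 0 with limma-voom (0.17), limma-trend (0.10) and the replicate block (0.41), and without untreated neurons alone replicate 1 (0.53). The interferon median (-0.20) turned without untreated neurons alone replicate 1 (0.46) or untreated co-culture replicate 2 (0.00). The inhibitory neuron median (-0.22) turned without untreated co-culture replicate 1 (0.13), and also without replicate 1 of both untreated and loaded co-cultures. The pentose phosphate median (0.17) turned without untreated neurons alone replicate 4 (-0.01), and the glycolysis median (-0.09) with no culture covariate (0.03). The cholesterol, cytosolic chaperone and p53 medians also turned without 1 library, over ranges of -0.11 to 0.18, -0.06 to 0.08 and -0.12 to 0.15. The astrocyte median ranged from -0.10 to 0.56 with 1 library left out and turned negative without loaded neurons alone replicate 2 or loaded co-culture replicate 4.

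With the replicate number as a block, 0 genes were called over both culture types, 0 in neurons alone, 0 in co-culture and 0 for the difference. Libraries of one number correlated at -0.11 to 0.22 in their deviations from group means (mean 0.04, against -0.01 for other pairs), and 9 of 16 correlated best with their own number, a hint from the data and not from the design. The labels do not say what libraries of a number share, so the main fit did not pair them. A shared origin of libraries of one number was not tested. Depth limits the sparse genes: the median standard error was 0.70 over all genes tested and 0.29 above a mean log2 CPM of 6.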
